A study of Mus musculus with 12 samples.

Results

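The 10 genes described here encode the enzymes of the pentose phosphate pathway and 3 further enzymes that reduce NADP+ to NADPH. They were chosen by role, with earlier results of these data known. G6pdx, Pgls and Pgd are of the oxidative branch, and Rpia, Rpe, Tkt and Taldo1 of the non-oxidative branch. Me1, Idh1 and Nnt lie outside the pathway. The genes were found by gene number in a count table of 16414 genes. All 10 were among the 11703 genes that passed the filter on low counts. The cells were 3T3-L1, a mouse fibroblast line that stores lipid after hormonal induction. In all groups the fibroblasts had been transfected with Lipofectamine for 48 h, either with 20 nM of a mimic of miR-335-5p or with a scrambled, non-targeting mimic (NT mimic). Differentiation was then started with insulin at 200 nM, 3-isobutyl-1-methylxanthine, rosiglitazone and dexamethasone at 250 nM, and continued in medium with insulin and finally in medium without it. RNA was sequenced at day 3, which the labels call preadipocyte, and at day 6, which they call adipocyte, with 3 libraries for each mimic and day. The medium changed together with the day, so time and medium cannot be told apart, and a transiently transfected line is a model with no animal or tissue behind the replicates. The labels do not say whether replicates were separate cultures, so p-values measure the spread between these libraries, which may be technical.

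NADPH carries the reducing power for fatty acid and sterol synthesis and for the glutathione and thioredoxin systems. The oxidative branch of the pentose phosphate pathway makes NADPH from glucose-6-phosphate, and the non-oxidative branch interconverts the resulting pentose phosphates with intermediates of glycolysis. In adipocytes, NADPH for lipogenesis is known to come from this pathway and from cytosolic malic enzyme, ME1. Cytosolic isocitrate dehydrogenase, IDH1, makes NADPH from isocitrate, and the nicotinamide nucleotide transhydrogenase, NNT, makes it inside mitochondria from NADH and the proton gradient.

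The sequence of the mimicked microRNA and the places that match it or a motif of this pathway are shown before the counts. All are RefSeq sequences of GRCm38.p6 except the UTR site, which is from the GENCODE annotation of GRCm38. The mature mmu-miR-335-5p lies at chr6:30741314-30741336 on the plus strand, and its seed (bases 2 to 8) is in capitals.
mmu-miR-335-5p: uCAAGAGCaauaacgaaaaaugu
A 7-base match to the seed was found in the longest annotated 3′ UTR of 1 of the 10 genes, Nnt, at bases 236 to 242 of 909. The match is in capitals.
Nnt site: aaaaacaggGCTCTTGgaggaagag
Over all 16043 genes with an annotated 3′ UTR, 20.8% held a 7-base match of this kind (to bases 2 to 8, or to bases 2 to 7 followed by A). The shorter 6-base match to bases 2 to 7 was present in Rpia, Rpe, Me1 and Nnt, against 38.6% of all genes. Such a match is a description of the sequence and not a measured site.

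Promoter windows of 250 bases before to 50 bases after a start were searched on both strands for 3 motifs. The core of the antioxidant response element (TGAC, any 3 bases, GC), the element bound by NRF2, was in 12.4% of all 32851 windows. It was present in the windows of G6pdx, Me1 and the second annotated start of Pgd. The matches, printed on the strand of the gene with the core in capitals, lie at chrX:74428919-74428947, chr9:86695902-86695930 and chr4:149166061-149166089, all on the minus strand.
G6pdx: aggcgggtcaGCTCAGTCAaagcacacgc
Me1: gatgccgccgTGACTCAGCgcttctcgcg
Pgd: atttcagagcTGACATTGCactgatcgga
The core in G6pdx reads on the opposite strand of the gene. The GC box (GGGCGG), a motif of many housekeeping promoters, was in 35.7% of windows and in at least 1 window of each of the 9 genes with an entry. The shares are per window, while Pgd, Me1 and Idh1 have 2 windows each, and the second windows of Pgd and Me1 held no GC box. The windows were also not limited to genes that passed the filter on low counts. Tkt, the gene with the highest counts among the 10, held 5 GC boxes. The one at chr14:30549107-30549132 is shown with the box, read on the opposite strand, in capitals.
Tkt: cgccccacctCCGCCCcgccccccat
No window of these genes held the E-box CACGTG, which was in 7.15% of all windows. Nnt has no entry in the promoter table.

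Total counts per library lay between 17.69 and 18.94 in units of 1e+06. The 8 adipocyte markers summed to 8711 to 11530 counts per 1e+06 after scaling (CPM) at day 3 and 9662 to 14130 CPM at day 6, and the 7 preadipocyte and fibroblast markers to 523.2 to 903.3 CPM and 1465 to 3046 CPM. Both marker sets were present on both days, and the fibroblast sum was higher in every day 6 library than in any day 3 library. The adipocyte sum hides moves in opposite directions between the days under the NT mimic. Adipoq rose by 3.85 and Lpl by 0.58 on the log2 scale, the Lpl call being lost in 5 of 14 alternatives. Cidec changed by -1.755, and the rest of that list was not called in the fit without a block. With the replicate number as a block, 4 of the 8 rose and 2 fell, with Cebpa, Cd36 and Plin1 called as well. That fit called 27.5% of all genes higher and 24.3% lower. The 6 macrophage markers summed to at most 7.58 CPM, with Itgam at 0 in all 12 libraries. The 4 endothelial markers summed to at most 0.959 CPM, with Kdr at 0 throughout. Of 3 epithelial markers in the table, Krt8 and Krt18 rose with day and the list went from 1.75 to 8.64 CPM to 18.99 to 43.66 CPM. Of 2 muscle markers in the table, Des rose with day, and the list went from 5.46 to 8.45 CPM to 11.82 to 22.18 CPM. The calls of Krt8, Krt18 and Des under the NT mimic were lost in 5, 4 and 3 of 14 alternatives. These sums moved with the same comparison as the genes below, and their part in the results was not tested. In such bulk samples, fewer cells of a type and less RNA per cell cannot be told apart.

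The comparison of day 6 with day 3 asked how the supply genes moved during differentiation. Of the 10 genes, 4 fell under each mimic (Tkt, Taldo1, Pgd and Rpe) and 0 rose. A gene was called at a Benjamini-Hochberg adjusted p below 0.01 in edgeR's quasi-likelihood test over all 11703 genes. Over all of them, 16.7% fell and 18.8% rose under the NT mimic, and 16.5% fell and 18.2% rose under the miR-335-5p mimic. With library totals in place of the TMM factors that split moved, to 3008 risen and 1160 fallen genes under the NT mimic (2206 and 1957 with TMM) and to 2894 and 1162 under the miR-335-5p mimic (2135 and 1926 with TMM), as the median of all genes moved up by 0.17 on the log2 scale. By the same scaling the 4 genes still fell. The median change of the 10 was -0.42 on the log2 scale under the NT mimic and -0.39 under the miR-335-5p mimic, against 0.03 and 0.02 over all genes tested. The 10 were chosen with earlier results of these data known, so these comparisons with all genes are descriptions.

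**Figure D1:**
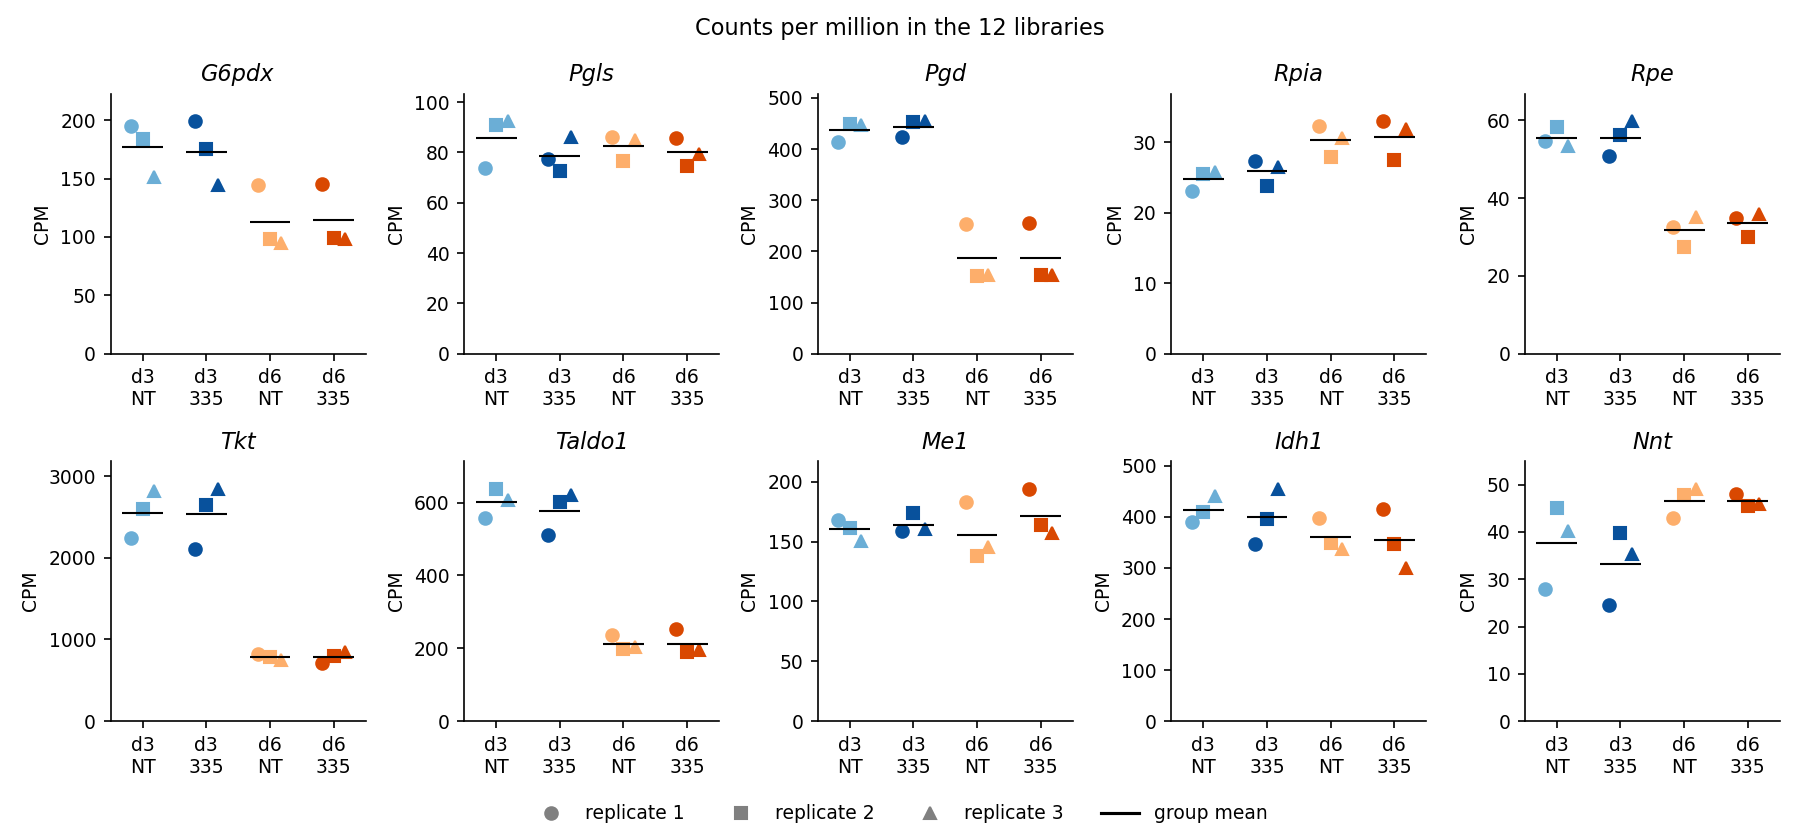
Scaled counts per 1e+06 (CPM, linear axis from 0) of the 10 genes in each of the 12 libraries, by day (d3, d6) and mimic (NT, or miR-335-5p by its number), with the replicate number as the symbol and the group mean as a line. Tkt, Taldo1, Pgd and Rpe lie lower in all day 6 libraries than in any day 3 library, and replicate 1 of Pgd lies above the other day 6 libraries under both mimics. Within a mimic, 3367 (NT) and 3214 (miR-335-5p) of all 11703 genes tested lay lower at day 6 with no overlap.

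G6pdx encodes glucose-6-phosphate dehydrogenase, which commits glucose-6-phosphate to the oxidative branch. In replicates 1, 2 and 3 it stood at 194.8, 184.3 and 151.4 CPM at day 3 and at 144.8, 98.2 and 94.9 CPM at day 6 under the NT mimic. With the miR-335-5p mimic the values were 199.1, 175.4 and 144.3 CPM, then 145.6, 99.2 and 98.2 CPM. The days did not overlap under the NT mimic, while under the miR-335-5p mimic replicate 1 of day 6 lay just above replicate 3 of day 3. Within each replicate number, the day 6 library was the lower under both mimics. The log2 difference was -0.65 (95% interval -1.09 to -0.21) under the NT mimic and -0.60 (-1.04 to -0.15) under the miR-335-5p mimic, with edgeR adjusted p = 0.0190 and 0.0281, short of the threshold. With the replicate number as a block, G6pdx fell under both mimics (log2 -0.67 and -0.61, adjusted p = 5.00e-05 and 1.10e-04). That block fits 1 shift per number for both days. Its error pools shifts that differ by day with the smaller spread of same-day pairs, so its p-values may be too small. Same-numbered libraries of the mimics also vary together, so the mimics are not independent of each other. G6pdx was also called without replicate 1 of day 6, at -0.87 (adjusted p = 0.00352) under the NT mimic and -0.81 (0.00603) under the miR-335-5p mimic. DESeq2 called it under the NT mimic (adjusted p = 0.00577) but not under the miR-335-5p mimic (0.0129).

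Pgls encodes 6-phosphogluconolactonase, which opens the lactone made by glucose-6-phosphate dehydrogenase. Its counts lay between 72.6 and 92.3 CPM in all 12 libraries, with the days overlapping under both mimics. The log2 difference was -0.06 (95% interval -0.28 to 0.17) under the NT mimic and 0.02 (-0.21 to 0.25) under the miR-335-5p mimic.

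Pgd encodes 6-phosphogluconate dehydrogenase, which makes the second NADPH of the branch and releases the pentose. It fell from 414, 448 and 446 CPM in the 3 day 3 libraries of the NT mimic to 252.7, 152.6 and 154.2 CPM at day 6. With the miR-335-5p mimic it went from 423, 454 and 454 CPM to 256.4, 153.3 and 154.1 CPM. At day 6 replicates 2 and 3 were nearly equal and replicate 1 stood well above them, under both mimics. The fall was 2.34-fold under the NT mimic (log2 -1.23, SE 0.22, edgeR adjusted p = 8.70e-04) and 2.36-fold under the miR-335-5p mimic (log2 -1.24, SE 0.22, adjusted p = 8.29e-04). Within replicate 1 it was -0.71 and -0.72 on the log2 scale under the NT and the miR-335-5p mimic, and in replicates 2 and 3 it lay between -1.53 and -1.57. Without replicate 1 of day 6 the fitted change was -1.51 under the NT mimic and -1.53 under the miR-335-5p mimic.

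In the non-oxidative branch, Tkt and Taldo1 showed the largest falls of the 10 genes. Tkt encodes transketolase, which moves short carbon units between sugar phosphates and links the pathway to glycolysis. Its 3 day 3 libraries under the NT mimic held 2244, 2595 and 2819 CPM and its day 6 libraries 827, 786 and 744 CPM. The miR-335-5p mimic libraries held 2111, 2648 and 2844 CPM, then 715, 795 and 850 CPM. The highest day 6 library of either mimic, at 850 CPM, lay far below the lowest day 3 library, at 2111 CPM. The fall was 3.25-fold under the NT mimic (log2 -1.70, SE 0.13, edgeR adjusted p = 2.03e-06) and 3.22-fold under the miR-335-5p mimic (log2 -1.69, SE 0.13, adjusted p = 2.22e-06). In the NT mimic comparison 1.97% of all genes tested had a lower log2 change than Tkt.

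Taldo1 encodes transaldolase, the other carbon-transfer enzyme of the branch. It fell from 558, 638 and 608 CPM to 236, 197 and 205 CPM under the NT mimic, and from 512, 602 and 621 CPM to 252, 190 and 195 CPM under the miR-335-5p mimic. As for Pgd, replicate 1 was the highest of the day 6 libraries under both mimics. The fall was 2.82-fold (log2 -1.50, SE 0.13) with the NT mimic and 2.72-fold (log2 -1.45, SE 0.13) with the miR-335-5p mimic, at edgeR adjusted p = 4.17e-06 and 5.44e-06.

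Rpe and Rpia encode the enzymes that act on ribulose-5-phosphate, and of them only Rpe was called. Rpe, ribulose-phosphate 3-epimerase, stood at 54.7, 58.2 and 53.4 CPM at day 3 and 32.7, 27.5 and 35.2 CPM at day 6 under the NT mimic. In the miR-335-5p mimic libraries Rpe stood at 50.8, 56.2 and 59.7 CPM, then 34.9, 30.1 and 35.8 CPM. The days did not overlap, and Rpe fell 1.74-fold (log2 -0.80, SE 0.11, edgeR adjusted p = 1.16e-04) and 1.65-fold (log2 -0.73, SE 0.11, adjusted p = 2.34e-04) under the NT and the miR-335-5p mimic. Rpia, ribose-5-phosphate isomerase, which makes the ribose-5-phosphate used for nucleotides, stood at 23.1, 25.5 and 25.7 CPM at day 3 and 32.3, 27.9 and 30.5 CPM at day 6 under the NT mimic. For the miR-335-5p mimic the values were 27.3, 23.8 and 26.4 CPM, then 33.0, 27.5 and 31.8 CPM. Every day 6 library lay above every day 3 library of the same mimic, at the closest with 27.5 against 27.3 CPM for the miR-335-5p mimic. Such a gap upwards was found for 3607 of the 11703 genes under the NT mimic and 3399 under the miR-335-5p mimic. The log2 difference of Rpia was 0.29 (95% interval 0.06 to 0.51) and 0.25 (0.03 to 0.47), and the edgeR adjusted p of 0.0337 and 0.0567 missed the threshold under both mimics, as did 0.0135 and 0.0243 with the replicate block. With library totals alone it was 0.46 and 0.41 and was called (adjusted p = 0.00233 and 0.00453).

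None of the 3 enzymes outside the pathway was called between the days under either mimic in the fit without a block. Me1 stood at 168, 162 and 150 CPM at day 3 and 183, 138 and 145 CPM at day 6 under the NT mimic, and at 159, 174 and 161 CPM, then 194, 163 and 158 CPM, under the miR-335-5p mimic. The days overlapped, and replicate 1 was again the highest at day 6. The log2 difference was -0.04 (95% interval -0.29 to 0.21) under the NT mimic and 0.06 (-0.19 to 0.31) under the miR-335-5p mimic. The upper end of the Tkt interval under the NT mimic was -1.41, and the lower end of the Me1 interval was -0.29, so these intervals did not overlap. The difference between the genes was not tested.

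Idh1 stood at 391, 410 and 440 CPM at day 3 and 398, 350 and 337 CPM at day 6 under the NT mimic. Under the miR-335-5p mimic it stood at 348, 395 and 455 CPM, then 415, 347 and 300 CPM. Replicate 3 was the highest library at day 3 and the lowest at day 6 under both mimics, and replicate 1 the reverse. The log2 difference was -0.19 (95% interval -0.48 to 0.09) under the NT mimic and -0.17 (-0.46 to 0.11) under the miR-335-5p mimic.

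Nnt stood at 27.8, 45.0 and 40.1 CPM at day 3 and 42.9, 47.9 and 49.1 CPM at day 6 under the NT mimic, with the days overlapping. Under the miR-335-5p mimic it stood at 24.5, 39.9 and 35.2 CPM, then 48.0, 45.4 and 45.9 CPM, with no overlap. Replicate 1 was the lowest at day 3 under both mimics. The log2 difference was 0.31 (95% interval -0.10 to 0.71, edgeR adjusted p = 0.186) under the NT mimic and 0.48 (0.08 to 0.89, adjusted p = 0.0469) under the miR-335-5p mimic. With the replicate number as a block Nnt rose under the miR-335-5p mimic (log2 0.51, adjusted p = 0.00535) and was not called under the NT mimic (log2 0.33, adjusted p = 0.0487). As for G6pdx, these blocked p-values may be too small. With library totals alone Nnt was also called under the miR-335-5p mimic, at 0.66 (adjusted p = 0.00844). The difference of these changes between the mimics was 0.18 without a block (95% interval -0.40 to 0.75, adjusted p = 1). With a block of replicate number within each day it was 0.18 (-0.02 to 0.37, edgeR unadjusted p = 0.0738). A rise under the miR-335-5p mimic alone is thus not shown.

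**Figure D2:**
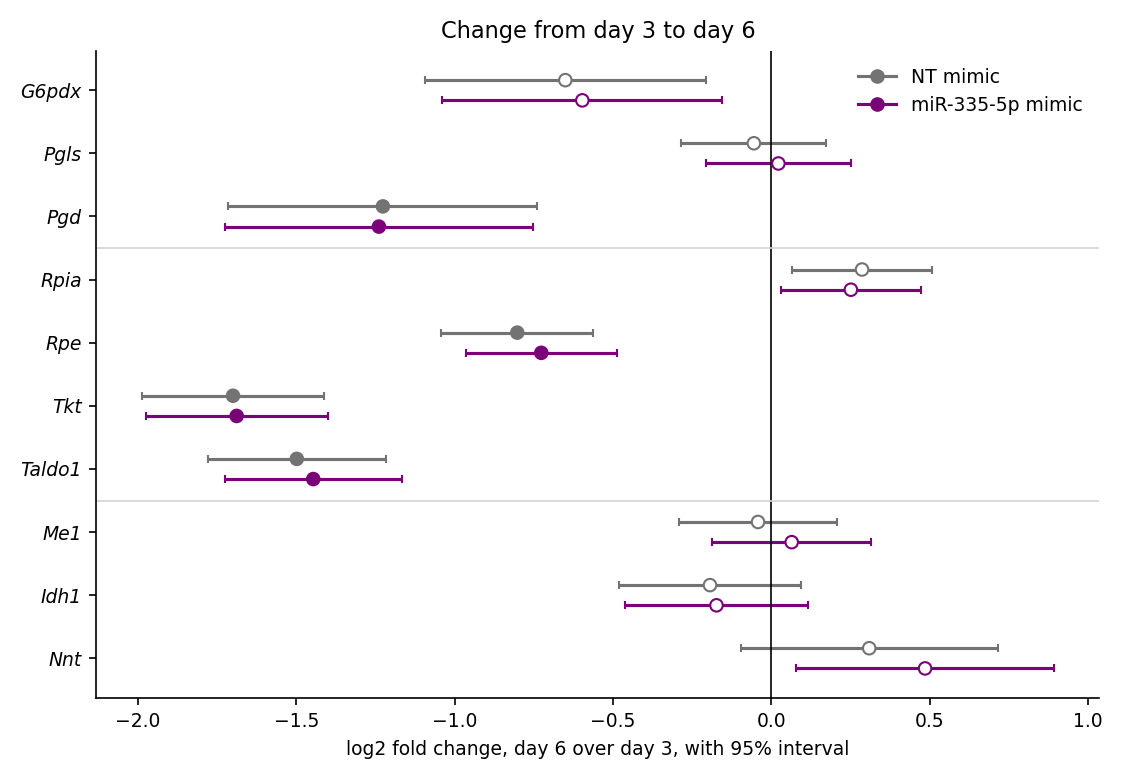
Fitted log2 fold change of day 6 over day 3 with its 95% interval for the 10 genes under the NT mimic (grey) and the miR-335-5p mimic (purple), with genes past the adjusted p of 0.01 as filled points and grey lines between the branches. Tkt is lowest at -1.70 and -1.69, and Pgls and Me1 lie at 0 within their intervals.

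Tkt, Taldo1, Pgd and Rpe were called under each of the 14 alternatives of processing run for each mimic, replicates left out included. The highest adjusted p over those alternatives was 4.85e-05 for Tkt, 5.32e-05 for Taldo1, 9.37e-04 for Rpe and 0.00514 for Pgd under the NT mimic. Under the miR-335-5p mimic it was 1.44e-04 for Tkt, 2.41e-04 for Taldo1, 0.00174 for Rpe and 0.00478 for Pgd.

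Levels of different genes were compared as CPM per kilobase of the longest annotated mRNA. At day 3 under the NT mimic the order was Tkt (792 ± 90 CPM per kilobase, SD, n = 3), Taldo1 (442 ± 29), Pgd (197 ± 8.6), Idh1 (180 ± 11), Pgls (80.7 ± 9.7), G6pdx (66.7 ± 8.5), Me1 (48.6 ± 2.8), Rpe (20.4 ± 0.92), Rpia (13.6 ± 0.80) and Nnt (10.9 ± 2.5). Neighbours whose libraries overlapped in level per kilobase were Pgd and Idh1, Pgls and G6pdx, and Rpia and Nnt. The miR-335-5p mimic gave the same order at day 3. At day 6 under the NT mimic Tkt was still the highest at 244 ± 13 CPM per kilobase, followed by Idh1 (157 ± 14) and Taldo1 (156 ± 15), whose libraries overlapped. Pgd (84.1 ± 26) then overlapped with Pgls (77.7 ± 5.0), and Me1 (47.2 ± 7.3) with G6pdx (42.5 ± 11). Rpia (16.5 ± 1.2) lay above Nnt (13.5 ± 0.95), which overlapped with Rpe (11.7 ± 1.4), now the lowest of the 10. The length used changed part of this order: at day 6 the shortest annotated mRNA put Idh1 ahead of Tkt under both mimics, and by coding length Nnt was last and Rpe at rank 8 on both days.

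**Figure D3:**
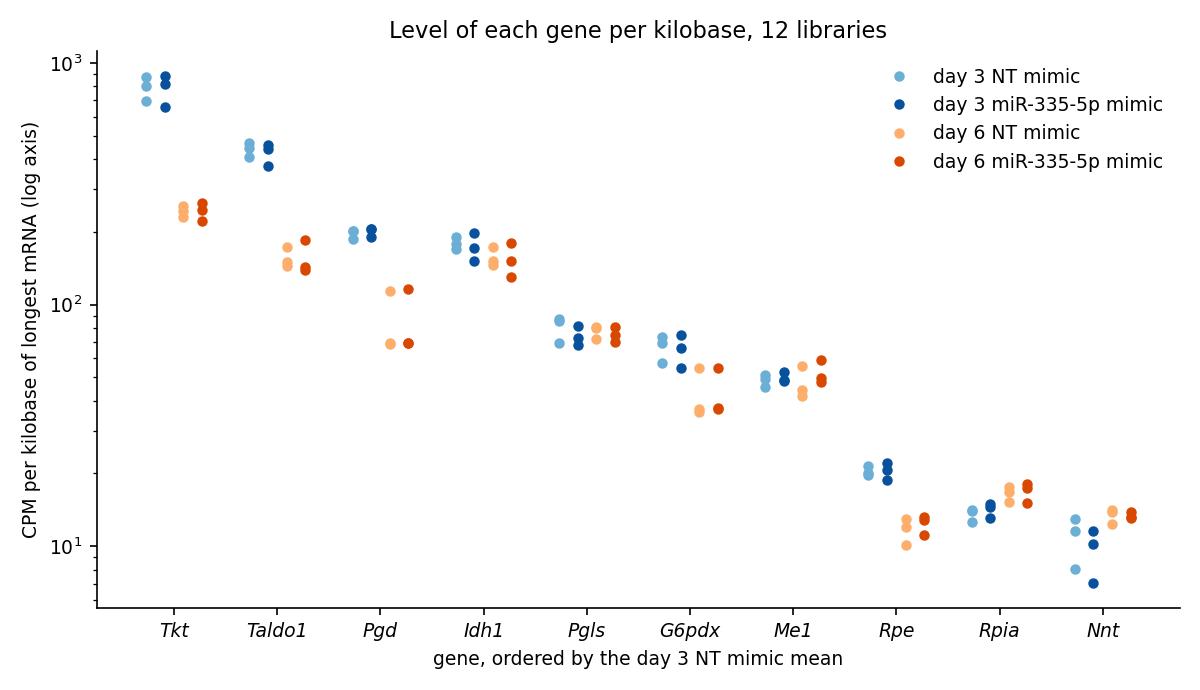
Level of the 10 genes in CPM per kilobase of the longest annotated mRNA (log axis) in each library, coloured by day and mimic, with the genes ordered by their mean in the day 3 NT mimic libraries. Tkt leads in all 4 groups at 244 to 792 CPM per kilobase as group means, and the distance between the genes is smaller at day 6 because its highest genes fell.

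As a share of the 10 genes' summed level per kilobase, the 4 non-oxidative genes took 66.1% to 69.7% in the 6 day 3 libraries and 46.4% to 54.0% in the 6 day 6 libraries. The 3 oxidative genes took 17.3% to 21.0% at day 3 and 22.0% to 26.7% at day 6. The share of Me1, Idh1 and Nnt went from 12.6% to 13.5% at day 3 to 23.6% to 26.9% at day 6. Their own summed level was 206 to 257 CPM per kilobase at day 3 and 191 to 253 CPM per kilobase at day 6, while that of the non-oxidative genes went from 1065 to 1374 CPM per kilobase down to 411 to 460. The level of Tkt per kilobase was 13.6 to 19.1 times that of Me1 at day 3 and 3.76 to 5.81 times at day 6. Within the oxidative branch, Pgd per kilobase was 2.54 to 3.76 times G6pdx at day 3 and 1.85 to 2.11 times at day 6. The ratio of Tkt to Taldo1 overlapped between the days, at 1.70 to 1.96 and 1.20 to 1.84. With the shortest annotated mRNA, which for Idh1 is 372 bases against 1242 of coding sequence in its longest form, the share of Me1, Idh1 and Nnt was 30.02% to 32.2% at day 3 and 46.5% to 53.0% at day 6, and that of the non-oxidative genes 54.3% to 57.5% and 30.2% to 38.3%. These shares and ratios are descriptions and depend on the annotated lengths, although a length cancels in the change of a ratio between days.

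The comparison of the mimics asked whether added miR-335-5p moved the supply genes. None of the 10 genes passed the threshold at day 3 or at day 6 in edgeR's test, and 0 of them had an unadjusted p under 0.05 on either day, with DESeq2 also giving 0 on both counts. Over all 11703 genes edgeR called 0% at day 3 and 0% at day 6, with 59 and 21 genes at an unadjusted p under 0.05 (63 and 20 by DESeq2). Without any effect a share of about 0.05 of the genes would lie there, and both counts are far below it. This fit counts the spread between replicate numbers as error, so 0 of the 10 genes under 0.05 says little. The fitted changes of the 10 ran from -0.18 (Nnt) to 0.06 (Rpia) on the log2 scale at day 3, and from -0.04 (Pgls) to 0.14 (Me1) at day 6. For Tkt the difference was -0.01 (95% interval -0.29 to 0.27) at day 3 and 0.00 (-0.28 to 0.28) at day 6, and for Taldo1 it was -0.06 (-0.33 to 0.22) and 0.00 (-0.28 to 0.27). For G6pdx it was -0.03 (-0.47 to 0.41) and 0.02 (-0.42 to 0.46), and for Pgd 0.02 (-0.46 to 0.50) and 0.01 (-0.47 to 0.49). Rpe differed by 0.00 (-0.23 to 0.24) at day 3 and 0.08 (-0.16 to 0.32) at day 6, and Rpia by 0.06 (-0.16 to 0.28) and 0.03 (-0.19 to 0.24). Pgls differed by -0.12 (-0.35 to 0.11) and -0.04 (-0.27 to 0.18). Without a block the interval of Nnt was -0.59 to 0.23 at day 3 and -0.41 to 0.40 at day 6, and that of Me1 -0.21 to 0.29 and -0.11 to 0.39. The intervals of Idh1 were -0.34 to 0.24 at day 3 and -0.32 to 0.26 at day 6.

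Libraries with the same replicate number varied together, and a block of replicate number within each day narrowed the intervals. In that fit the interval of Pgd was -0.07 to 0.12 at day 3 and -0.09 to 0.11 at day 6, and that of Tkt -0.14 to 0.11 and -0.13 to 0.13. Nnt, the gene with the 7-base seed match printed above, was lower with the miR-335-5p mimic in all 3 same-numbered pairs of day 3, by log2 differences of -0.18, -0.17 and -0.19. The blocked difference was -0.18 (95% interval -0.33 to -0.04, unadjusted p = 0.0161), and it failed the correction over all genes (edgeR adjusted p = 0.553). At day 6 the pairs of Nnt went in both directions, at 0.16, -0.08 and -0.10, with a blocked difference of 0.00 (-0.14 to 0.13). Me1, which holds only a 6-base match, was higher with the miR-335-5p mimic in all 3 pairs of day 6, by 0.09, 0.24 and 0.12, and its blocked difference of 0.15 (0.04 to 0.26, unadjusted p = 0.0122) also failed the correction (edgeR adjusted p = 0.791). Other genes also had pairs of one sign: Pgd was higher in 3 of 3 pairs at day 3, and at day 6 G6pdx and Rpe were higher and Pgls lower in 3 of 3. Agreement of 3 pairs arises often without any effect, and its share over all genes was not counted. These signs therefore do not set Nnt or Me1 apart. At day 3 the Me1 pairs stood at -0.09, 0.10 and 0.09. With this block 4 genes were called over all genes at day 3, none of them among the 10: Cyp2f2, Acvrl1, Angpt4 and gene number 627914, which has no symbol in the annotation. They were named after their values were seen.

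**Figure D4:**
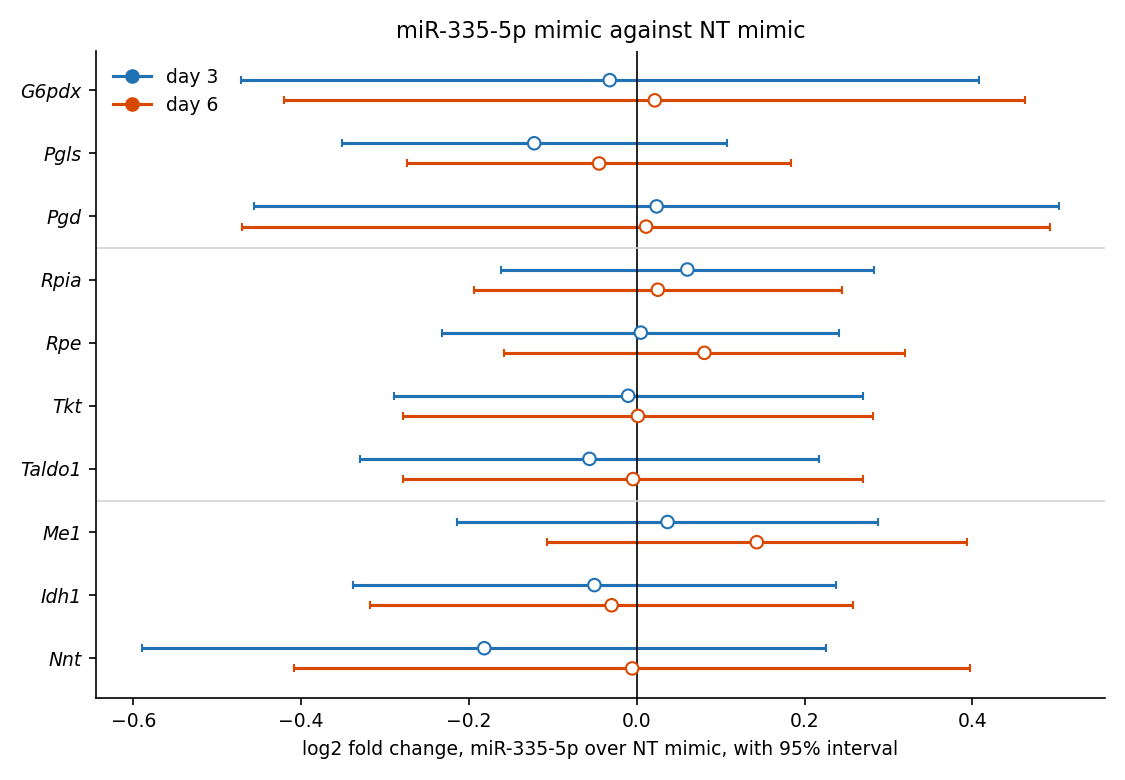
Fitted log2 fold change of the miR-335-5p mimic over the NT mimic with its 95% interval for the 10 genes at day 3 (blue) and day 6 (orange), from the fit without a block, with open points for genes not past the adjusted p of 0.01. All 20 intervals, which hold the spread between replicate numbers, include 0, and the points range from -0.18 to 0.14.

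The difference of the mimic effect between the days was called for 0 of the 10 genes, with 0 at an unadjusted p under 0.05 in edgeR and in DESeq2. Over all genes 0% were called, with 29 at an unadjusted p under 0.05 in edgeR and 30 in DESeq2. These fits had no block either, and both counts again lie far below a share of 0.05 of the genes. The 0 of the 10 genes therefore says little. The largest difference among the 10 was that of Nnt (0.18), and the next that of Me1 (0.11, 95% interval -0.25 to 0.46).

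The genes most like Me1 and G6pdx over the 12 libraries were taken as those with the smallest root mean square difference in centred log2 CPM. For Me1 these were Cdc42 (0.0623), Dnajb11 (0.0628) and Helb (0.0667), against a median of 0.315 over 11702 genes. For G6pdx they were Parp1 (0.0876), Cat (0.0923) and Dlat (0.0958), against a median of 0.470. Parp1 changed by -0.60 and -0.68 on the log2 scale between the days under the NT and the miR-335-5p mimic, near the -0.65 and -0.60 of G6pdx. Cdc42, like Me1, changed little between the days, at -0.02 and 0.03 under these mimics. The smallest of 11702 distances lie below the median by the way they were picked, so the medians only give a scale.

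Genes around the 10 in metabolism are given for day 6 against day 3 under the NT mimic, where 16.7% of all genes fell and 18.8% rose. Of 9 tested genes of ribose and pentose metabolism, 2 rose and 0 fell. Prps1, which makes phosphoribosyl pyrophosphate from ribose-5-phosphate, rose by 1.09 on the log2 scale, and Prpsap1, a subunit associated with that synthetase, by 0.32, a call that was lost in 6 of 14 alternatives. With the replicate block 4 of the 9 rose and 3 fell, H6pd, the dehydrogenase of the endoplasmic reticulum, among the latter (log2 -0.36, edgeR adjusted p = 0.00372, against -0.38 and 0.11 without the block). G6pd2 and Tktl1 were not analysed here.

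Of 9 tested NADP-linked dehydrogenases and NAD kinases outside the 10, 1 rose and 2 fell. Aldh1l2, a mitochondrial enzyme that makes NADPH from a folate, rose by 1.46, from 50.8 ± 11 CPM to 139 ± 37 CPM. Mthfd2, the mitochondrial methylenetetrahydrofolate dehydrogenase, fell by 1.87 and Glud1, glutamate dehydrogenase, fell by 1.85 on the log2 scale. Idh2, the mitochondrial relative of Idh1, changed by -0.08 (edgeR adjusted p = 0.719). Of 11 genes that supply citrate, isocitrate and malate, 0 rose and 2 fell, among them Pcx, pyruvate carboxylase, which fell by 0.96.

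Among 11 users of NADPH in lipid and sterol synthesis, 2 rose and 2 fell. Fasn, fatty acid synthase, fell by 0.93 and Por, the reductase that passes electrons from NADPH to cytochromes P450, by 0.75. Tm7sf2, a reductase of sterol synthesis, rose by 1.97. Among 11 users in redox defence and reduction, 2 rose (Nqo1 by 2.43 and Txnrd1 by 0.72) and 2 fell (Akr1b3 at -3.65 and Cbr1 at -0.89), with the call of Txnrd1 lost in 3 of 14 alternatives. NQO1 is a quinone reductase, TXNRD1 reduces thioredoxin, AKR1B3 is the mouse aldose reductase and CBR1 reduces carbonyls.

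Of NRF2 and its targets outside the 10, 6 of 12 rose and 1 fell. Nqo1 and Slc7a11, a cystine transporter at 0.566 ± 0.24 CPM at day 3, had the lowest adjusted p of those that rose, and Gclc, a subunit of glutamate-cysteine ligase, fell by 1.55. The call of Slc7a11 was lost without replicate 2 of the day 3 NT mimic, and those of Gclm, Hmox1 and Osgin1 were lost in 3, 6 and 7 of 14 alternatives. Of the 3 genes with an antioxidant response element core printed above, Pgd fell, G6pdx missed the threshold and Me1 stood at -0.04 in the fit without a block. With the replicate block G6pdx was called lower as well (log2 -0.67), and Me1 was not called (-0.05).

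Of 10 lipogenic regulators, Nr1h3, the nuclear receptor LXR alpha, rose by 2.50, and Insig2 and Nr1h2 fell by 0.64 and 0.31, both calls being lost in at least 6 of 14 alternatives. Of 10 genes of glucose entry and the branch point, 2 rose and 4 fell. Slc2a4, the insulin-responsive glucose transporter GLUT4, rose by 2.27 and Hk1, a hexokinase, by 0.85, the latter call being lost in 5 of 14 alternatives. Hk2, another hexokinase, fell by 1.35 and Pfkfb3, which makes an activator of glycolysis, by 1.66. Under the miR-335-5p mimic the counts risen and fallen were 1 and 0 for ribose metabolism, 1 and 2 for the dehydrogenases, 0 and 2 for citrate supply, 2 and 2 for each group of NADPH users, 5 and 1 for NRF2 targets, 1 and 1 for the regulators and 2 and 4 for glucose entry. With the replicate block, which called 27.5% of all genes higher and 24.3% lower under the NT mimic, the other lists held 1 risen and 3 fallen genes for the dehydrogenases, 1 and 3 for citrate supply, 5 and 2 for lipid and sterol users, 3 and 3 for redox users, 6 and 2 for NRF2 targets, 3 and 3 for the regulators and 2 and 4 for glucose entry. The blocked counts under the miR-335-5p mimic were 3 and 2 for ribose metabolism, 2 and 3 for the dehydrogenases, 1 and 2 for citrate supply, 5 and 2 for lipid and sterol users, 3 and 3 for redox users, 7 and 2 for NRF2 targets, 4 and 3 for the regulators and 2 and 4 for glucose entry, where 27% of all genes rose and 24.7% fell. In the comparisons of the mimics 0 genes of these lists were called on either day.

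**Figure D5:**
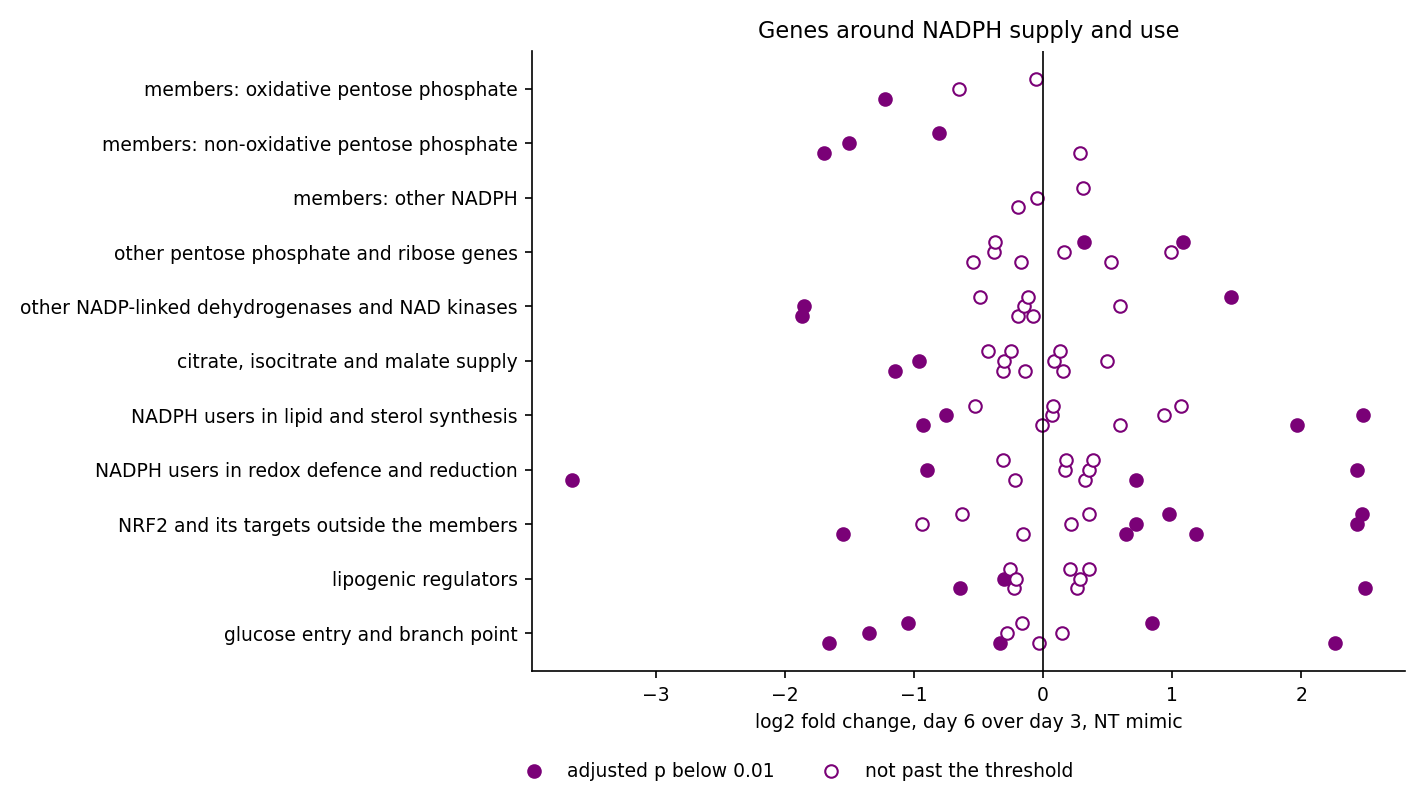
Fitted log2 fold change of day 6 over day 3 under the NT mimic for each tested gene, in rows by gene list, with filled points for genes past the adjusted p of 0.01 and a small vertical shift only to separate points. The non-oxidative genes of the 10 (members) hold 3 filled points between -1.70 and -0.80, and the users of NADPH have filled points on both sides of 0.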

How the data were processed

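The authors deposited 1 table of estimated counts per gene, not scaled to depth, with 1 column per sample. Tools listed in the submitters' notes are HISAT2 2.2.1 and RSEM 1.3.1, with mm39 as the build. Neither the annotation nor the strand setting is stated in the sources used, so overlapping and antisense genes cannot be told apart. Of the values 3.37% were not whole (tolerance 1e-06) and all were rounded. Of 16414 gene numbers, 794 were at 0 in all libraries and 16387 matched the RefSeq annotation of GRCm38.p6, which gave names and promoter sequences. Lengths and UTRs came from GENCODE M21 of GRCm38. Coordinates are those of GRCm38 and were not applied to the counts.

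Groups and replicate numbers came from the labels. The main test was the robust quasi-likelihood fit of edgeR 4.0.16 (R 4.3.3) to 4 group means over 12 libraries, with TMM factors and the filterByExpr filter, two-sided, Benjamini-Hochberg adjusted over 11703 genes and called below 0.01, the study's threshold. The study used DESeq2, run here (1.42.0) as an alternative. CPM are TMM-scaled counts per 1e+06. The test was checked on simulated data, drawn with less spread than was fitted here and without any shift shared by a replicate number. That check therefore does not cover the pairing of the libraries described below. No pair of libraries agreed within sampling noise: the chi-square per degree of freedom ran from 9.70 to 45.2 over the 12 within-group pairs and was at least 2.99 for any pair.

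Pairing by replicate number was checked on the residuals. All 18 same-numbered pairs correlated, at 0.485 to 0.825 for the 6 pairs within a day and 0.253 to 0.541 for the 12 pairs across days, and 12 of 12 libraries were closest to one of their own number. The numbers thus pair the samples, while what a number stands for is not labelled.

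The genes and lists were chosen with earlier results of these data known. All 10 genes are named. From each further list the 2 called genes with the lowest adjusted p in each direction under the NT mimic are named, and for Me1 and G6pdx the 3 most alike genes. Some genes that this rule takes are not reported here. Alternatives were other scaling, filters, DESeq2, blocks of replicate number, fits of only the groups compared, each replicate left out, other gene lengths and a 6-base seed match.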

Additional observations from a re-analysis of the deposited data

How the results depend on the processing

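The number of the 10 genes called between the days stayed at 4 to 5 under the NT mimic and 4 to 6 under the miR-335-5p mimic in every alternative run, and at 0 in every mimic comparison. Of 280 single-gene alternatives between the days 12 changed a call, those of G6pdx, Rpia and Nnt, all towards a call, and 8 changed the sign of a gene not called. Of 500 in the mimic comparisons 0 changed a call and 79 changed the sign of a gene not called, so their directions are not established. Among the 10 genes the replicate block changed no other call. Its p-values between the days may be too small, as described for G6pdx, so its calls may be too many. Over all genes the block raised the calls between the days from 4163 to 6069 under the NT mimic and from 4061 to 6042 under the miR-335-5p mimic, and with DESeq2, an alternative chosen after seeing the data, to 6108 and 6140. That alternative also called 1 gene, Rps27, against 0 for the difference between days. Its fitted log2 difference was 37.16, which is too large to be read as a change of expression. The block within each day called 4 genes against 0 at day 3. It was not run between the days, where its error would leave out the spread between replicate numbers within a day. The fit of only the groups compared could not differ for the difference between days, which uses all 12 libraries. With coding lengths, 6 of 10 genes kept their rank in level per kilobase at day 3 under the NT mimic, and 7 with the shortest mRNA. A 6-base seed match was in 4 of the genes against 1 with a 7-base match. The cause of these shifts was not tested.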
